A study of Mus musculus with 9 samples.

Results

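The 10 genes described here encode proteins of skeletal muscle fibres, namely Acta1, Ckm, Mylpf, Myh1, Myh4, Tnnt3, Tnnc2, Tnni2, Atp2a1 and Mb. They were taken by name, with no threshold on their values, from the 26214 genes of the table of normalized counts, in which a value is the number of reads on a gene divided by a factor for its library. Of the 10 genes, 9 had a mean of 10 or more over the 8 replicated libraries, as did 13601 genes in all, and were tested, and Myh4, with a mean of 7.76, was not. RNA was sequenced from sorted cells of C57Bl/6 mice (adult males, no transgene or deletion named in the labels) 1 day after an injection into the quadriceps. Adipose stromal cells (ASCs, 3 libraries) came from subcutaneous adipose tissue and fibro-adipogenic progenitors (FAPs, 2 libraries analysed here) from quadriceps muscle, both after NaCl injection. Injured FAPs (3 libraries) came from quadriceps muscle after Glycerol injection, which damages the fibres. A further library of CD31+CD45+ cells, also from quadriceps muscle after Glycerol injection, has no replicate and entered no test. ASCs and FAPs were sorted as CD31-/CD45-/Sca-1+ cells, and the study describes the libraries of a cell type as repeats from a pool of cells of several animals, so that p-values measure only the spread between these libraries, which may be technical. ASCs served as the group from a tissue without muscle fibres.

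A fast fibre shortens when calcium released from the sarcoplasmic reticulum binds troponin C, which shifts troponin I, troponin T and tropomyosin on the actin filament and lets myosin heavy chains pull on it. Muscle creatine kinase restores the ATP used in this cycle, myoglobin holds oxygen for the mitochondria, and a calcium pump of the reticulum ends the contraction. Fibres are multinucleate cells too large to be sorted, and their transcripts for these proteins are among the most abundant of muscle tissue, whereas stromal cells build their cytoskeleton from other genes of the same families.

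RefSeq promoters (build GRCm38.p6) were found for 8 of the 10 genes, all but Tnnt3 and Tnni2, and those of 4 of them are shown. Each is the 250 bases before the start listed with the RefSeq promoter, 5′ to 3′ on the gene's strand. For all 4 this start differs from the gene start in the GENCODE coordinates given later. Capitals mark matches to any of 5 motifs on either strand. The E-box is CANNTG. The M-CAT element, bound by TEAD factors, is CATTCC. The core promoter element searched was TATAAA. The MEF2 site and the CArG box, bound by serum response factor, complete the set. The Acta1 promoter lies at chr8:123894776-123895025 on the minus strand, that of Ckm at chr7:19410844-19411093 on the plus strand, that of Myh1 at chr11:67199852-67200101 on the plus strand and that of Myh4 at chr11:67237562-67237811 on the plus strand.
Acta1: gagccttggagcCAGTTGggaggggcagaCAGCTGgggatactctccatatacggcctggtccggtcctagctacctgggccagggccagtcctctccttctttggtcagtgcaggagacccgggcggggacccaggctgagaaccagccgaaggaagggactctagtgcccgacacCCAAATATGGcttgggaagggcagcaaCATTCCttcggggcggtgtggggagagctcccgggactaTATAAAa
Ckm: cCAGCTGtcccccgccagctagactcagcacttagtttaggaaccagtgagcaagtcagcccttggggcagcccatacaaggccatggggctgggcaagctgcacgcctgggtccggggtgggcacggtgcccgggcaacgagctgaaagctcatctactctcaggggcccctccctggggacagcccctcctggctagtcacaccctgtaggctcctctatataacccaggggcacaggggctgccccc
Myh1: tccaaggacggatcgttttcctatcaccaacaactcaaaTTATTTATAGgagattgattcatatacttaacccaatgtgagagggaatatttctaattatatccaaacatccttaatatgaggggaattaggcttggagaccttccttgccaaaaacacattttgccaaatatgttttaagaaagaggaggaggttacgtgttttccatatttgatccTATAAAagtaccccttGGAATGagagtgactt
Myh4: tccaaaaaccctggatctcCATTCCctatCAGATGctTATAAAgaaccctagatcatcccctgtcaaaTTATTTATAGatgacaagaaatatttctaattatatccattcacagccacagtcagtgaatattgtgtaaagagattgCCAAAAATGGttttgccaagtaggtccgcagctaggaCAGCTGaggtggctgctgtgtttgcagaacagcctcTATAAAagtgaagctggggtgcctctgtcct

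The Acta1 window held a CArG box ending 63 bases before the start, a M-CAT element ending 40 bases before it, a TATAAA and 2 E-boxes. Both myosin windows held a MEF2 site, ending 201 bases before the start in Myh1 and 172 bases in Myh4, and in each of them the MEF2 site overlapped a TATAAA match. The Myh4 window also held a CArG box ending 94 bases before the start. In the Ckm window only 1 E-box matched. Among the 8 genes with a promoter, 7 held an E-box, 3 a M-CAT element, 3 a TATAAA, 2 a MEF2 site and 2 a CArG box in at least 1 of their windows (Mb has 3, the others 1). The same motifs were present in 66.2%, 12.6%, 12.4%, 2.92% and 1.47% of all 32851 promoters of this length, so that the E-box was common everywhere and the MEF2 site and the CArG box were rare. A match describes letters in a window, and a window without one shows only that these letters are not in it.

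The sort markers, and Pdgfra as a further stromal gene, were checked first. Ly6a, which encodes Sca-1, lay between 36777 and 49855 in ASCs, at 16542 and 10823 in FAPs and between 21308 and 24855 in injured FAPs, and Pdgfra lay between 10837 and 25268 in these 8 libraries against 119 in the CD31+CD45+ library. The CD45 gene Ptprc was at 0, 1.13 and 0 in ASCs and at 0 in both FAP libraries, and reached 11.8, 55.8 and 9.92 in injured FAPs and 797 in the CD31+CD45+ library. Pecam1, the gene of CD31, was at 83.0, 46.4 and 67.8 in ASCs, at 195 and 0 in FAPs, at 192, 269 and 121 in injured FAPs and at 45323 in the CD31+CD45+ library. Injured FAP library 2 stood apart by leukocyte genes, whose sum over a list of 15 was 3492 against 752 and 649 in the other injured FAP libraries. The FAP libraries stood apart in another way: 12 of the 15 leukocyte genes and 4 of 14 endothelial genes were listed at 0 in both, Ptprc, Lyz2, Vwf and Plvap among them, while Cd68 was at 254 and 477 and Cdh5 at 1438 and 686. Over all genes, 57 were listed at 0 in both FAP libraries with more than 3 reads in each of the other 6 libraries, against 18 such genes for ASCs and 2 for injured FAPs. None of the 10 fibre genes was at 0 in a FAP or injured FAP library.

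Reads on genes numbered 27349184 to 27481573 in ASCs, 24052508 and 24164447 in FAPs, 26698572 to 27028114 in injured FAPs and 13091077 in the CD31+CD45+ library. The fibre genes took few of them: the 10 genes together had 130, 105 and 131 reads in ASCs, 994 and 1176 in FAPs, 423, 441 and 347 in injured FAPs and 2668 in the CD31+CD45+ library. Precision at this level is limited by counting, since 3 reads are worth between 2.29 and 4.71 on the scale of normalized counts depending on the library. In ASCs 5, 7 and 6 of the 10 genes were at or below 3 reads, whereas no fibre gene was in any other library. Intervals on ratios of reads given here cover counting error only.

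The summed level of the 10 genes was highest in the CD31+CD45+ library, lower in FAPs, lower again in injured FAPs and lowest in ASCs. It was 171, 119 and 164 in ASCs (mean 151.5 ± 28.5, SD, n = 3), 945 and 1106 in FAPs (1026 ± 114, SD, n = 2), 332, 342 and 265 in injured FAPs (313 ± 42.0, SD, n = 3) and 4187 in the CD31+CD45+ library. The groups did not overlap, and the sum in injured FAPs was 30.5% and that in ASCs 14.8% of the sum in FAPs. Leaving out any of the FAP or injured FAP libraries gave 28.3% to 33.1% for injured FAPs. Tnnt3 made up 78.5%, 77.1% and 77.1% of the sum in ASCs. Without it, a measure added after seeing the data, the sum was 36.9, 27.2 and 37.7 in ASCs, 691 and 643 in FAPs, 252, 260 and 191 in injured FAPs and 3743 in the CD31+CD45+ library, so that ASCs came to 5.08% and injured FAPs to 35.2% of FAPs. In bulk samples fewer fibre fragments or fibre-derived cells and less RNA from each cannot be told apart, and neither can transcripts inside the sorted cells from transcripts carried along with them.

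**Figure D1:**
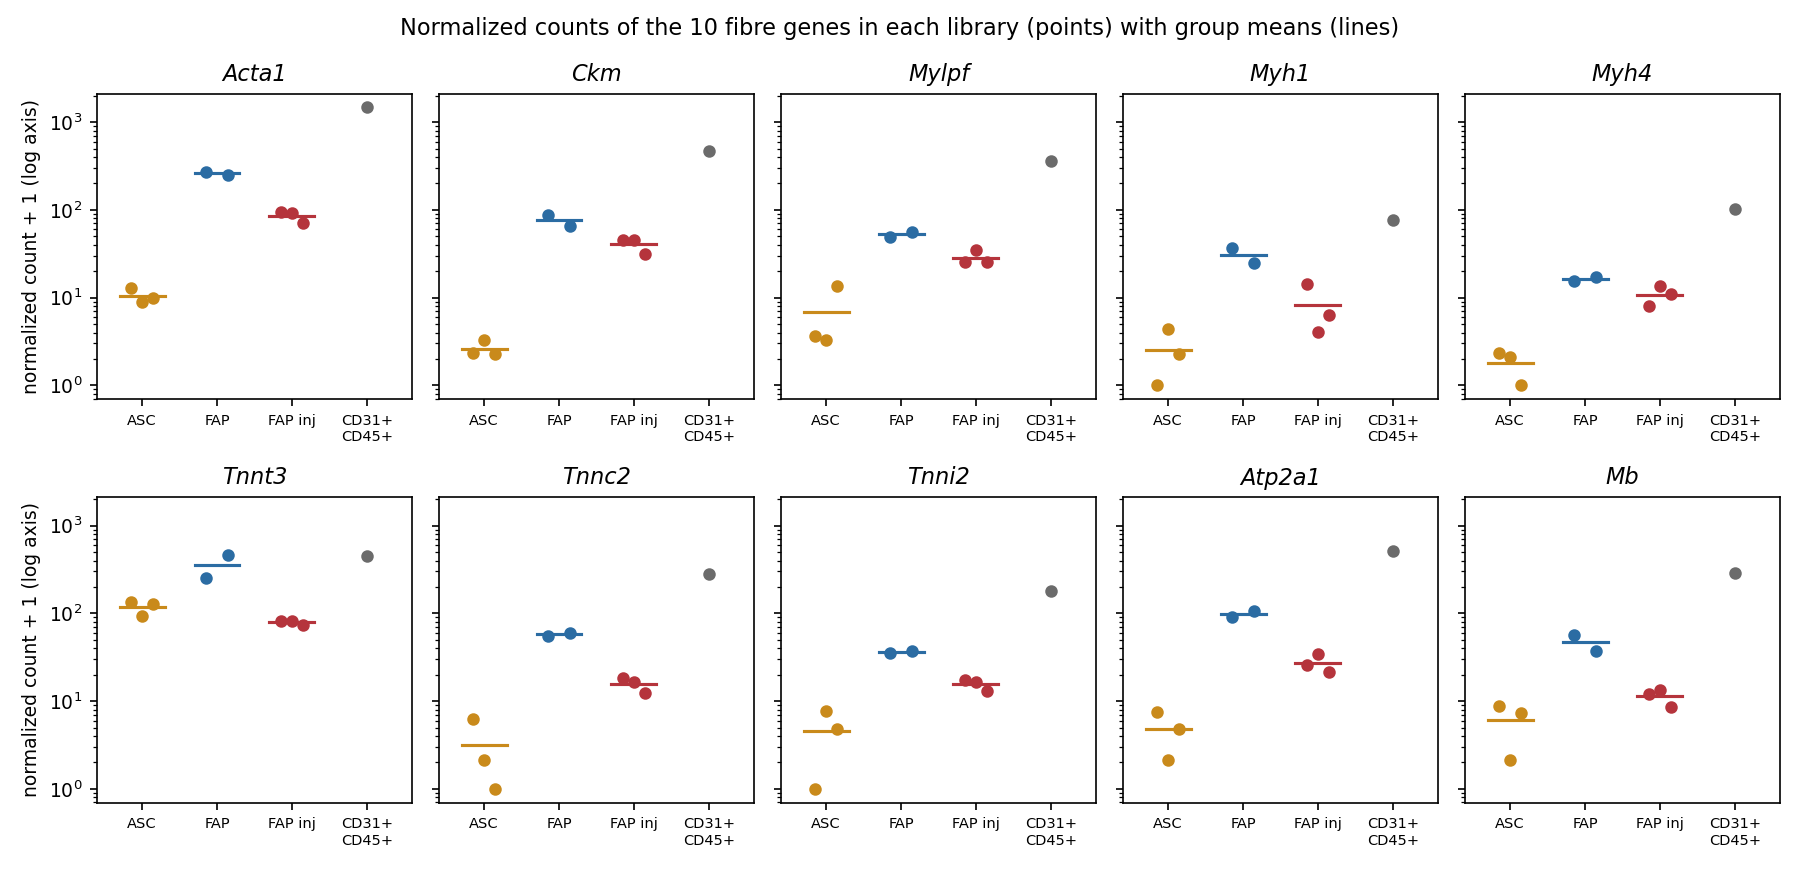
Normalized count plus 1 (log axis) of each of the 10 fibre genes, with 1 point per library and a line at the mean of each group with replicates. FAP libraries lie above injured FAP libraries for all 10 genes, and Tnnt3 is the gene with ASC libraries (91.7 to 134) above the injured FAP libraries (73.2 to 81.4).

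Thin filament genes held most of the fibre signal. Acta1, the skeletal muscle alpha-actin, had normalized counts of 11.9, 7.93 and 8.79 in ASCs, 271 and 246 in FAPs, 92.6, 89.9 and 69.4 in injured FAPs and 1469 in the CD31+CD45+ library. Each group of libraries was separate from the next, and the FAP values differed from each other by less than they did from any other library. In injured FAPs the log2 fold change against FAPs was -1.62 (SE 0.26, limma with Benjamini-Hochberg adjustment, adjusted p = 0.000329), and against ASCs it was 3.02 (SE 0.23, adjusted p = 1.64e-06 by the same fit). ASCs were lower than FAPs by a log2 fold change of -4.64 (SE 0.26, limma, adjusted p = 3.96e-07). These fold changes are on the scale of log2(normalized count + 1), which understates the change of genes with low counts. Acta1 (chr8:123891769-123894751, minus strand, GENCODE M21 on GRCm38) has near-identical relatives in Acta2 and Actc1, and reads shared with them may have been counted for any of the 3. Actc1 stayed at 7.61 or below in ASCs, FAPs and injured FAPs. Acta2 was at 256, 110 and 87.9 in ASCs, 5396 and 4848 in FAPs and between 1325 and 1442 in injured FAPs. These groups thus had the same order for Acta2 as for Acta1, and the part of Acta2 in the Acta1 values was not tested.

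The troponin genes did not move as a unit. Tnnt3, the fast troponin T that ties the complex to tropomyosin, was at 134, 91.7 and 127 in ASCs, 254 and 464 in FAPs, 80.0, 81.4 and 73.2 in injured FAPs and 444 in the CD31+CD45+ library. It was the fibre gene with ASCs above injured FAPs in every library, the one whose FAP libraries lay farthest apart in absolute terms, and the one whose CD31+CD45+ value did not exceed both FAP libraries. Against FAPs it fell by 2.12 on the log2 scale in injured FAPs (SE 0.26, limma with Benjamini-Hochberg adjustment, adjusted p = 5.89e-05) and was lower in ASCs with -1.56 (SE 0.26, adjusted p = 0.000568). Injured FAPs against ASCs gave -0.57 (SE 0.24), which did not pass with an adjusted p of 0.0552 by limma, though it did without ASC library 2 (-0.73, adjusted p = 0.0213) and after quantile normalization (-0.73, adjusted p = 0.0235). Over all alternatives the adjusted p of this difference ranged from 0.0213 to 0.139. The annotation gives Tnnt3 (chr7:142498836-142516009, plus strand) 21 coding transcripts, and which of them the reads came from was not analysed.

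Tnnc2, the calcium-binding fast troponin C, was at 5.27, 1.13 and 0 in ASCs, 54.2 and 59.3 in FAPs, 17.3, 15.5 and 11.4 in injured FAPs and 282 in the CD31+CD45+ library. Tnni2, the inhibitory fast troponin I, was at 0, 6.80 and 3.77 in ASCs, 34.2 and 36.7 in FAPs, 16.5, 15.5 and 12.2 in injured FAPs and 180 in the CD31+CD45+ library. For both genes the libraries of ASCs, injured FAPs and FAPs followed each other without overlap. Tnnc2 was called lower in injured FAPs than in FAPs (-1.89, SE 0.68, limma with Benjamini-Hochberg adjustment, adjusted p = 0.0315), while Tnni2 gave -1.22 (SE 0.75, adjusted p = 0.172) and was not called. That Tnnc2 call was lost without any 1 of the 5 FAP and injured FAP libraries, with an adjusted p of 0.0569 to 0.130, and in 8 of 17 alternatives in all (range 0.000266 to 0.130). Tnni2 gained a call in 5 of 17, among them edgeR (adjusted p = 0.0422) and DESeq2 (adjusted p = 0.0449) on the recovered reads, within a range of 0.00425 to 0.380 over its alternatives. Both were higher in injured FAPs than in ASCs, Tnnc2 by 2.71 (SE 0.61, limma, adjusted p = 0.00266) and Tnni2 by 2.23 (SE 0.67, limma, adjusted p = 0.0133). Tnnc2 (chr2:164777161-164779967, minus strand) shares 592 exon bases, 74.0% of its exon bases, with Ube2c on the other strand, and without strand information reads there could be counted for either. Ube2c was at 41.8 and 110 in FAPs and between 1096 and 1194 in injured FAPs, so it moved the opposite way to Tnnc2, and its part in the Tnnc2 values was not tested. Tnni2 lies at chr7:142441808-142444410 on the plus strand.

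Of the thick filament genes, Mylpf, the fast myosin regulatory light chain (chr7:127208890-127214298, plus strand), was at 2.63, 2.27 and 12.6 in ASCs, 48.5 and 54.6 in FAPs, 24.32, 34.1 and 24.4 in injured FAPs and 363 in the CD31+CD45+ library. All injured FAP libraries were below both FAP libraries and above all ASC libraries. Against FAPs the log2 fold change in injured FAPs was -0.89 (SE 0.58, 95% interval -2.18 to 0.39), which limma with Benjamini-Hochberg adjustment did not call (adjusted p = 0.196), while 2 of 17 alternatives did. Against ASCs it was 2.38 (SE 0.52, limma, adjusted p = 0.00214).

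Myh1, the heavy chain of type IIx fibres, was at 0, 3.40 and 1.26 in ASCs, 36.1 and 23.5 in FAPs, 13.3, 3.10 and 5.34 in injured FAPs and 75.3 in the CD31+CD45+ library. Injured FAP library 2, at 3.10, fell below ASC library 2, so the groups overlapped. Limma with Benjamini-Hochberg adjustment called Myh1 lower in injured FAPs than in FAPs (-2.07, SE 0.76, adjusted p = 0.0347) and higher than in ASCs (1.74, SE 0.68, adjusted p = 0.0433). Without injured FAP library 2 the call against FAPs was lost (-1.66, adjusted p = 0.102, within 0.00533 to 0.102 over the alternatives), and the call against ASCs was lost in 9 of 15 alternatives, with an adjusted p of up to 0.180. In all, the call against FAPs was lost in 5 of 15 alternatives, the others being a pseudocount of 0.5 (adjusted p = 0.0630 by limma), quantile normalization (0.0722), the replicate block (0.0773) and leaving out injured FAP library 3 (0.0866).

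Myh4, the heavy chain of the fastest fibres, was at 1.32, 1.13 and 0 in ASCs, 14.3 and 16.0 in FAPs, 7.06, 12.4 and 9.92 in injured FAPs and 102 in the CD31+CD45+ library. FAP, injured FAP and ASC libraries did not overlap, and the gene entered no main test because of its low mean. ASCs had 2 reads on Myh4 in all, which puts the ratio of FAPs to ASCs at 18.4 (95% counting interval 4.71 to 159) and that of injured FAPs to FAPs at 0.648 (0.394 to 1.07). With no filter on low values its log2 fold change in injured FAPs against FAPs was -0.61 (SE 0.49, limma with Benjamini-Hochberg adjustment, adjusted p = 0.341). Myh1 (chr11:67200052-67224575) and Myh4 (chr11:67238029-67260446) are neighbours on the plus strand with near-identical sequence, as is Myh2, and the split of reads between them is uncertain. Myh2, of type IIa fibres, was at 23.8 and 14.1 in FAPs, 3.92 to 5.42 in injured FAPs and 59.6 in the CD31+CD45+ library. The embryonic Myh3 and neonatal Myh8 heavy chains of growing and regenerating fibres reached no more than 0.941 in FAPs and 0.763 in injured FAPs.

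Of the genes of energy supply and oxygen storage, Ckm, the muscle creatine kinase (chr7:19404776-19422841, plus strand), was at 1.32, 2.27 and 1.26 in ASCs, 86.5 and 64.0 in FAPs, 44.7, 44.2 and 30.5 in injured FAPs and 472 in the CD31+CD45+ library. The groups were separate, with the ASC values resting on 4 reads in all. Injured FAPs against FAPs gave -0.91 (SE 0.38), which limma with Benjamini-Hochberg adjustment did not call (adjusted p = 0.0589), whereas 8 of 17 alternatives did, among them edgeR (adjusted p = 0.0217) and DESeq2 (adjusted p = 0.0375) on the recovered reads, within 0.00949 to 0.302 over the alternatives. Against ASCs Ckm had the largest rise of the tested fibre genes in injured FAPs on the scale of log2(normalized count + 1), 3.97 (SE 0.34, limma, adjusted p = 3.73e-06). With a pseudocount of 8 its rise was 2.30, below 2.39 for Acta1. The ratio of reads for Ckm was 24.22 (95% counting interval 9.27 to 90.0). Its brain-type relative Ckb, which many cells use, was at 3090 and 3647 in FAPs against 741 to 820 in injured FAPs.

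Mb, which encodes myoglobin (chr15:77015487-77050670, minus strand), was at 7.90, 1.13 and 6.28 in ASCs, 56.1 and 36.7 in FAPs, 11.0, 12.4 and 7.63 in injured FAPs and 290 in the CD31+CD45+ library. Both FAP libraries were above every ASC and injured FAP library, while ASCs and injured FAPs overlapped between 7.63 and 7.90. Mb was lower in injured FAPs than in FAPs (-2.06, SE 0.62, limma with Benjamini-Hochberg adjustment, adjusted p = 0.0137), a call lost in 2 of 17 alternatives, without FAP library 1 (adjusted p = 0.102) and after quantile normalization (adjusted p = 0.0507, range 0.000536 to 0.102 over the alternatives). Injured FAPs against ASCs gave 1.11 (SE 0.55, limma, adjusted p = 0.1004), which passed without ASC library 1 (1.501, adjusted p = 0.0338, within 0.0338 to 0.322). Of its exon bases, 27.6% are shared with the antisense gene Gm49540.

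Atp2a1, the fast-fibre calcium pump SERCA1 (chr7:126445858-126463108, minus strand), was at 6.59, 1.13 and 3.77 in ASCs, 90.3 and 105 in FAPs, 25.1, 33.3 and 20.6 in injured FAPs and 508 in the CD31+CD45+ library. No group overlapped another. In injured FAPs it was lower than in FAPs by a log2 fold change of -1.88 (SE 0.51, limma with Benjamini-Hochberg adjustment, adjusted p = 0.00842) and higher than in ASCs by 2.66 (SE 0.46, limma, adjusted p = 0.000480). Without FAP library 2 the first call was lost (adjusted p = 0.0618 by limma, the highest of its alternatives, whose lowest was 1.14e-05). Atp2a2, the pump of slow fibres and of most other cells, was at 8607 and 8500 in FAPs against 12582 to 12865 in injured FAPs. Atp2a1 shares 763 exon bases with Rabep2 on the other strand, which was at 350 and 374 in FAPs against 320 to 367 in injured FAPs.

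**Figure D2:**
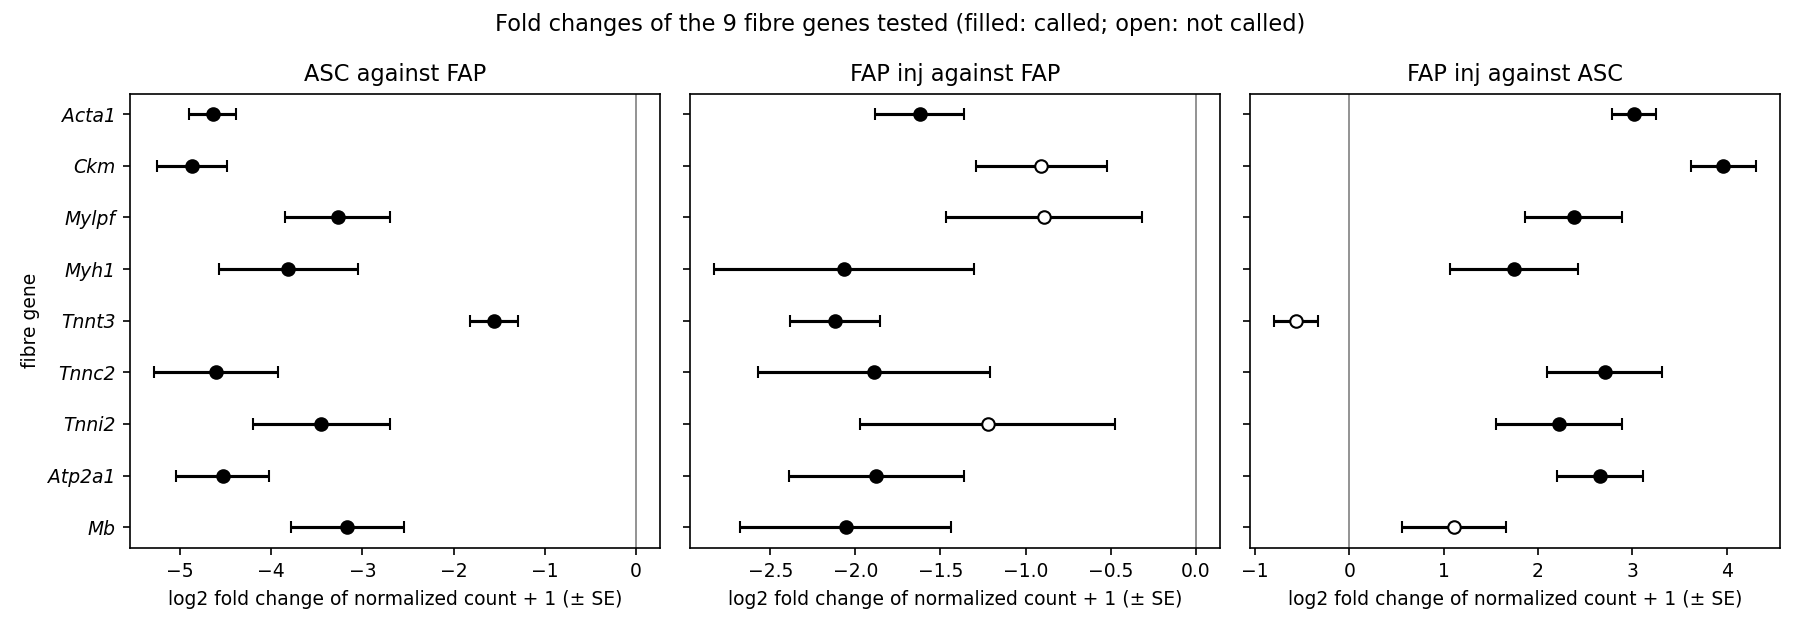
Log2 fold change of normalized count plus 1 (point) with its standard error (bar) for the 9 tested fibre genes in 3 comparisons, filled where limma called the gene and open where it did not. All points lie below 0 in both comparisons with FAPs, and Tnnt3 (-0.57) is the point below 0 in injured FAPs against ASCs.

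Seen by comparison, ASCs against FAPs, 2 tissues without injury, gave the lowest values. Of the 9 tested fibre genes, 9 were called lower in ASCs, beside 23.8% of all 13601 genes called lower and 23.4% called higher, with a median log2 fold change of -3.81 against 0.00 over all genes tested. Called means an adjusted p under 0.05 by limma and a log2 fold change beyond 0.58. In every ASC library each of these 9 genes lay below both FAP libraries, which held for 35.4% of all genes tested. A fibre gene could pass the filter through its FAP libraries alone. Myh1, Tnnc2, Tnni2 and Mb did, since their mean over the other replicated libraries lay below 10. This count, and those for injured FAPs and for the order of the groups given later, therefore describe the list only. The fold changes ran from -4.87 for Ckm to -1.56 for Tnnt3, and leaving out either FAP library took Myh1 below the filter and left 8 of 8 called. Under a common upper quartile the median of all genes shifted to -0.20 in this comparison and the calls over all genes to 2452 higher and 4142 lower, from 3183 and 3233, with a median of -3.95 for the fibre genes.

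Injured FAPs against FAPs set cells sorted from quadriceps muscle 1 day after Glycerol injection beside cells sorted from it after NaCl injection. Of the 9 genes 6 were called lower, Acta1, Myh1, Tnnt3, Tnnc2, Atp2a1 and Mb, beside 27.7% of all genes called lower and 24.9% called higher. Among the 6, Myh1, Tnnc2 and Mb passed the filter only through their FAP libraries, so this count describes the list only. The median log2 fold change of the 9 genes was -1.88 against -0.05 over all genes tested. Limma called 0 of the 9 higher, as did edgeR and DESeq2, and 0 were higher at an unadjusted p under 0.05, where 7 were lower. Every injured FAP library lay below both FAP libraries for all 9 genes, a separation found for 43.6% of all genes tested. As means, the 10 genes in injured FAPs kept between 21.8% (Tnnt3) and 64.7% (Myh4) of their level in FAPs. The number of calls varied with the libraries and the method. Without FAP library 1 the median was -1.66, and without FAP library 2 it was -1.69. In both cases Myh1 fell below the filter, fewer genes were called, and the remaining FAP library was assumed to vary like the other groups. With all libraries edgeR and DESeq2 each called 8. Without injured FAP library 2, the library with the most leukocyte RNA, 4 genes were called and the median was -1.68. Both comparisons with FAPs share the same 2 FAP libraries.

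Injured FAPs against ASCs set damaged muscle beside fat. Of the 9 genes, 7 were called higher, all but Tnnt3 and Mb, beside 25.0% of all genes called higher and 25.8% called lower, with a median of 2.38 against 0.02 over all genes tested. Limma called 0 lower, edgeR and DESeq2 also 0, and 1 (Tnnt3) was lower at an unadjusted p under 0.05. For 6 genes every injured FAP library exceeded every ASC library, against 36.2% of all genes tested. The complete order of ASCs below injured FAPs below FAPs, with no overlap at either step, held for Acta1, Ckm, Mylpf, Tnnc2, Tnni2 and Atp2a1, 6 of the 9, and for 7.12% of all genes tested.

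Per transcript length, which allows genes to be compared, the makeup of the fibre signal was similar for some genes outside ASCs and different for others, and likeness was not tested. Among the 9 genes other than Tnnt3, Acta1 made up 35.4% and 34.2% of the summed normalized count per kb in FAPs, 33.3%, 30.5% and 32.3% in injured FAPs and 34.3% in the CD31+CD45+ library. Tnnc2 made up 14.6% and 17.0% in FAPs, 12.8%, 10.9% and 11.0% in injured FAPs and 13.6% in the CD31+CD45+ library. Mylpf took a larger share in injured FAPs, with 17.8%, 23.6% and 23.1%, than in FAPs, with 12.9% and 15.4%, and Mb a smaller one, with 7.46%, 7.96% and 6.70% against 13.8% and 9.63%. Myh1 and Myh4, which have long transcripts, stayed at or below 1.15% in these libraries. In ASCs, where these 9 genes had 28, 24 and 30 reads, the leading gene changed from library to library, with Mb at 31.7%, Tnni2 at 39.3% and Mylpf at 45.5%. When Tnnt3 was included it led in every ASC, FAP and injured FAP library, with 76.3% to 80.3% of the sum per kb in ASCs, with 32.1% and 47.9% in FAPs, with 28.3% to 32.7% in injured FAPs, and it was in the third place, with 12.9%, in the CD31+CD45+ library.

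**Figure D3:**
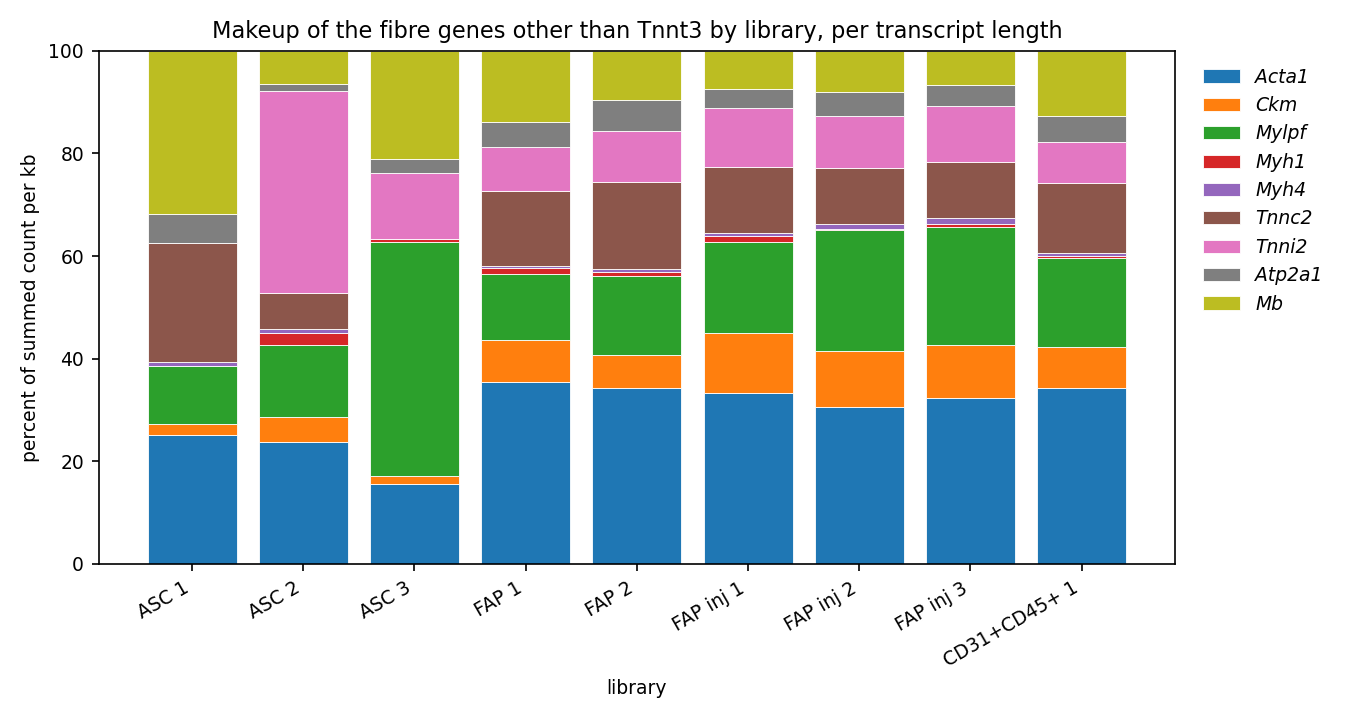
Percent of the summed normalized count per kb of transcript that each of the 9 fibre genes other than Tnnt3 took in each of the 9 libraries (stacked bars). Acta1 takes 30.5% to 35.4% in the FAP, injured FAP and CD31+CD45+ libraries and 15.6% to 25.2% in the ASC libraries, which hold 24 to 30 reads on these genes.

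Other fibre genes that passed the filter gave a mixed account. Of 20 other fast contractile genes only 6 passed the filter. Of these, 4 were called lower in ASCs than in FAPs, 5 lower in injured FAPs than in FAPs, and 2 higher and 1 lower in injured FAPs than in ASCs (medians -2.61, -1.59 and 0.15). The gene called lower against ASCs was Neb, the giant ruler of the thin filament, at 50.1, 37.4 and 60.3 in ASCs, 29.5 and 27.3 in FAPs and 10.2, 9.30 and 6.86 in injured FAPs (-2.35, limma with Benjamini-Hochberg adjustment, adjusted p = 6.46e-05). Ldb3, a Z-disc protein, was at 128 and 111 in FAPs against 24.4 to 28.2 in injured FAPs (-2.13, limma with Benjamini-Hochberg adjustment, adjusted p = 0.00410), and Myom1, of the M-band, was at 164.5 and 165 in FAPs against 11.4 to 22.5 in injured FAPs. Tpm2, a tropomyosin that stromal and smooth muscle cells also use, did not follow, with 861 and 696 in FAPs against 698 to 829 in injured FAPs. Among 16 genes of excitation-contraction coupling 6 were tested. Against FAPs, 5 were called lower and 1 (Jph1) higher in ASCs and 3 lower and 1 (Jph1) higher in injured FAPs, and 3 were called higher in injured FAPs against ASCs (medians -1.62, -1.12 and 1.03). Jph2 of the membrane junctions fell from 263 and 266 in FAPs to 43.4 to 72.5 in injured FAPs (limma, adjusted p = 0.000407), while Jph1 was called higher, from 26.6 and 18.8 to 52.7 to 61.8 (limma, adjusted p = 0.00163). Stac3 was at 48.5 and 94.1 in FAPs against 26.7 to 27.5 in injured FAPs. Of 15 genes of fibre energy metabolism 11 were tested, with 5 called lower and 1 (Ampd1) higher in ASCs, 5 lower and 1 (Ak1) higher in injured FAPs against FAPs, and 3 higher and 5 lower in injured FAPs against ASCs (medians -0.35, -0.83 and -0.30). This list held genes that stromal cells express at high level. Ak1, its most abundant by the mean of the 8 libraries, rose from 789 and 927 in FAPs to 1332 to 1424 in injured FAPs (limma, adjusted p = 0.000545). Pygm, more abundant than Ak1 in both FAP libraries, fell from 1031 and 1522 to between 130 and 141 (limma, adjusted p = 1.24e-06).

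Few slow and developmental fibre genes passed the filter. Of 14 slow fibre genes 3 were tested, with 2 called lower in ASCs, 2 lower in injured FAPs against FAPs and 1 higher in injured FAPs against ASCs (medians -5.00, -3.41 and 1.00). Those with most reads, Casq2 at 357 and 253 in FAPs against 24.8 to 30.6 in injured FAPs, and Pln at 66.6 and 34.8 in FAPs against 0.763 to 5.42 in injured FAPs, are also genes of smooth muscle. Tnnc1, the slow troponin C, was at 15.8, 11.3 and 12.6 in ASCs, 17.1 and 12.2 in FAPs against 4.71 to 12.2 in injured FAPs. Tnnt1, the slow troponin T, was not tested and overlapped between FAPs and injured FAPs, with 8.56 and 9.41 in FAPs beside 7.85, 17.8 and 18.3 in injured FAPs. Of 9 genes of developing and regenerating fibres 3 were tested, with 1 called higher in ASCs than in FAPs, 1 lower in injured FAPs against FAPs and 2 lower in injured FAPs against ASCs (medians -0.08, 0.52 and -1.02). They were Myl4 (174, 102 and 113 in ASCs, 20.9 and 44.2 in FAPs, 42.4 to 45.8 in injured FAPs), Myl6b (39.9 and 80.9 in FAPs, 15.5 to 20.4 in injured FAPs) and Ankrd1 (28.5 and 23.5 in FAPs, 34.5 to 41.1 in injured FAPs). Among the 22 non-muscle relatives of the fibre genes, all tested, 11 were called higher and 3 lower in injured FAPs against FAPs, 6 higher and 3 lower in ASCs against FAPs, and 8 higher and 5 lower in injured FAPs against ASCs (medians 0.58, 0.25 and 0.35). Actb, their most abundant, rose from 30085 and 32493 in FAPs to 44494 to 49363 in injured FAPs, the opposite direction to Acta1. Acta2, an actin in the smooth muscle and pericyte list, fell like Acta1.

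Of 16 satellite cell and myoblast genes 8 were tested. In ASCs 8 were called lower than in FAPs, beside 23.8% of all genes tested. In injured FAPs 5 were called lower than in FAPs, beside 27.7%, and 7 higher than in ASCs, beside 25.0% (medians -3.40, -0.998 and 2.10). Pax7 and Fgfr4 passed the filter only through their FAP libraries. So did Pln, Casq1, Pvalb, Cox6a2 and Cnn1 among the genes of other lists. The counts against FAPs of these lists therefore describe the lists only. The summed level of the 16 satellite cell and myoblast genes was 548, 451 and 695 in ASCs and 2672 and 2816 in FAPs. It was 1036, 1032 and 966 in injured FAPs and 4724 in the CD31+CD45+ library. Des, which is also in the smooth muscle and pericyte list, made up 332, 292 and 482 of it in ASCs. Heyl and Des were the most abundant genes of the sum in FAPs. Pax7, the defining gene of satellite cells, was at 0 in all ASC libraries, 31.4 and 65.9 in FAPs, 11.8, 10.9 and 5.34 in injured FAPs and 289 in the CD31+CD45+ library. Heyl was at 1202 and 1118 in FAPs against 157 to 187 in injured FAPs, Des at 713 and 725 against 326 to 424, and Chodl at 219 and 274 against 174 to 224. Myod1 went the other way, with 10.5 and 14.1 in FAPs and 26.7, 19.4 and 14.5 in injured FAPs (0.65, limma with Benjamini-Hochberg adjustment, adjusted p = 0.458, not called). Myog, which marks differentiating myoblasts, was at 0 in both FAP libraries and at 0.785, 0 and 0 in injured FAPs.

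All 12 smooth muscle and pericyte genes were tested; 11 were called lower in ASCs and 10 lower in injured FAPs against FAPs, and 8 were called higher and 2 lower in injured FAPs against ASCs (medians -3.48, -1.61 and 1.80). The list summed to 5924, 3834 and 4811 in ASCs, 26864 and 23497 in FAPs, 11275, 10978 and 11416 in injured FAPs and 101710 in the CD31+CD45+ library, the same order of groups as for the fibre genes, with no marker at 0 throughout a group. Cspg4, the most abundant over the 8 libraries, was at 3666 and 4176 in FAPs against 3881 to 4655 in injured FAPs, while Rgs5 was at 6148 and 4583 against 1718 to 2091 and Acta2 at 5396 and 4848 against 1325 to 1442. The part of these cell types in the fibre gene result was not tested.

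Endothelial genes, 13 of 14 tested, were called lower in 7 and higher in 5 in ASCs, lower in 6 and higher in 3 in injured FAPs against FAPs, and higher in 7 and lower in 3 in injured FAPs against ASCs (medians -1.41, -0.69 and 1.51). Their sum was 36136, 34913 and 31756 in ASCs and 17494 and 12608 in FAPs. In injured FAPs it was 10054, 9203 and 9188, and in the CD31+CD45+ library 467950. Ly6c1, the most abundant over the 8 libraries, made up 28737, 28930 and 23960 of the sum in ASCs and 10090 and 7632 in FAPs. The higher sum in ASCs than in FAPs thus lay mostly in Ly6c1, while 7 genes of the list were called lower in ASCs. Leukocyte genes, 11 of 15 tested, were called higher in 5 in ASCs than in FAPs, higher in 9 in injured FAPs against FAPs and higher in 9 and lower in 1 in injured FAPs against ASCs (medians 1.84, 5.09 and 3.23). Their sum was 497, 415 and 388 in ASCs, 265 and 497 in FAPs, 752, 3492 and 649 in injured FAPs and 34934 in the CD31+CD45+ library. Injured FAP library 2 had the highest sum of both lists, 3492 for leukocyte genes and 342 for the fibre genes, beside 752 and 332 in library 1 and 649 and 265 in library 3, and a link between them was not tested. All 9 leukocyte genes called higher in injured FAPs than in FAPs, and the 3 endothelial genes called higher (Emcn, Cldn5 and Plvap), were listed at 0 in both FAP libraries. Their fold changes against FAPs, and the median of 5.09, rest on those zeros, and whether values were removed before deposit is not known.

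Tendon genes also differed between muscle and fat. The 6 tenocyte genes were all tested; 6 were called lower in ASCs, 4 lower in injured FAPs against FAPs and 6 higher in injured FAPs against ASCs (medians -6.26, -0.99 and 5.14), and their sum ranged over 2312 to 3255 (ASCs), 246730 to 268200 (FAPs) and 178860 to 194480 (injured FAPs), with Fmod the highest in FAPs and ASCs and Thbs4 in injured FAPs. Of 9 Schwann and neural genes, all tested, 6 were called lower in ASCs, 5 lower in injured FAPs against FAPs, and 2 higher and 3 lower in injured FAPs against ASCs (medians -1.29, -1.16 and 0.58), with Pmp22 as the most abundant. Of 14 adipocyte genes 7 were tested, with 4 called higher and 2 lower in ASCs, 4 lower in injured FAPs against FAPs and 6 lower in injured FAPs against ASCs (medians 2.18, -1.75 and -3.93). Adipoq, the adipocyte hormone adiponectin, was at 44.8, 44.2 and 37.7 in ASCs, 0.951 and 8.47 in FAPs and 1.57, 0.775 and 0 in injured FAPs. Erythroid genes, none of 7 tested, were at 0 in both FAP libraries, and 4 globin genes were at 0 in all 9 libraries. The list of sort markers held Ly6a, Pecam1 and Ptprc beside stromal genes not used in the sort, such as Col1a1 and Dcn. Of its 9 genes 8 were tested, with 5 called higher in ASCs than in FAPs. In injured FAPs 2 were called higher and 3 lower than in FAPs, and 1 higher and 5 lower than in ASCs. The medians were 0.81, 0.24 and -0.85, and these counts do not describe the sort.

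**Figure D4:**
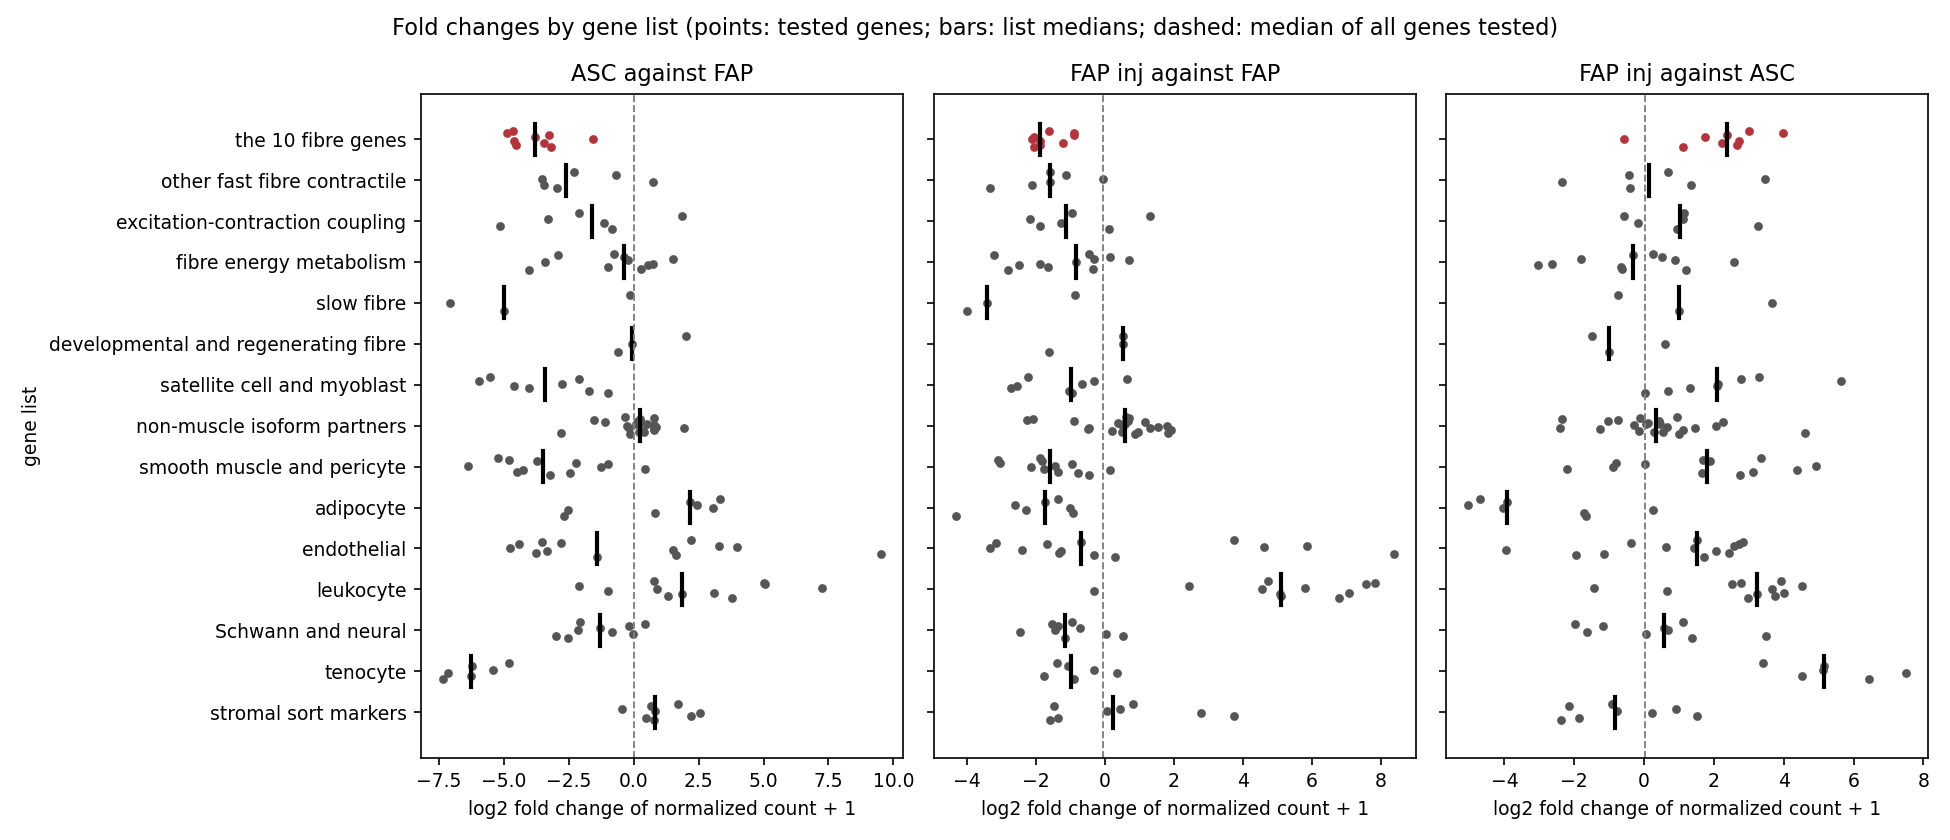
Log2 fold change of normalized count plus 1 for the tested genes of 15 lists (points, with a bar at the list's median) in 3 comparisons, with the median of all genes tested as a dashed line. The 10 fibre genes (9 tested, red) have medians of -3.81, -1.88 and 2.38, and the smooth muscle and pericyte list has -3.48, -1.61 and 1.80.

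The genes most like the fibre genes over the 8 libraries were not fibre genes. Of 13592 candidates with a mean of at least 10, the 10 with the highest Pearson correlation to the mean centred log2(normalized count + 1) of the fibre genes were Myo18a, Ldlrad4, Mylk, Plcb1, Lama3, Meox2, Jph4, Hip1, Arhgef15 and Cnot8, with r from 0.994 to 0.998 over 8 libraries that form 3 separate groups. None of the 10 was in a list, and 1 of the top 100 (Casq2) was in 1 of the other fast contractile, excitation-contraction coupling, fibre energy and slow fibre lists, from which 26 genes could have been. Mylk, the myosin kinase of smooth muscle, ranged over 318 to 391 (ASCs), 3748 to 4055 (FAPs) and 1288 to 1704 (injured FAPs), and Arhgef15 was at 3.77 to 6.59, 540.1 and 509.9, and 48.8 to 79.0. What the ranking follows was not tested. With Spearman correlation 0 of these 10 remained among the top 10, where 13 genes were tied, and with a pseudocount of 8 there were 2.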

How the data were processed

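RNA sequencing of 9 libraries was used, 3 of ASCs, 2 of FAPs, 3 of injured FAPs and 1 of CD31+CD45+ cells. Per the labels and the methods of the study, the authors filtered reads, aligned them to mm10 with HISAT2, counted them per gene with Subread and deposited normalized counts, a signal equal to the gene count divided by a size factor for each library, with FastQC for quality and DESeq2 for tests. The strand setting and the handling of multi-mapping reads are not given in the sources used here. In every library 100% of values came out as whole reads (tolerance 0.01) once divided by the value of 1 read, and 2 further columns of the table held no values and were not used. Reads on genes per library are given in the report.

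Values were analysed as log2(value + 1) for the 13601 of 26214 genes with a mean of at least 10 over the 8 replicated libraries. A limma fit with a mean-variance trend and 1 mean per group (5 residual degrees of freedom) compared ASCs with FAPs, injured FAPs with FAPs and injured FAPs with ASCs, which share groups. A gene was called when its log2 fold change exceeded 0.58 in size and its Benjamini-Hochberg adjusted p was below 0.05. Count tests on the recovered reads called 3586 genes higher and 3717 lower in injured FAPs against FAPs with edgeR and 3485 higher and 3742 lower with DESeq2, beside 3388 and 3765 with limma. The CD31+CD45+ library has no replicate and entered no test.

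Besides the 10 fibre genes, 15 lists were used: other fast contractile genes, excitation-contraction coupling, fibre energy metabolism, slow fibre, developmental and regenerating fibre, satellite cell and myoblast, non-muscle relatives, smooth muscle and pericyte, adipocyte, erythroid, endothelial, leukocyte, Schwann and neural, tenocyte and sort markers. The members and the lists were chosen with earlier results of these data known. Genes named by rule were the fibre genes and the 10 genes with the highest Pearson correlation to the fibre genes. Close relatives, sort markers and abundant genes of the lists were named in part only, so their naming followed no strict rule. Other genes named were chosen after their values were seen. Alternatives were a pseudocount of 0.5 or 8, no filter or a mean of at least 50, quantile and upper quartile normalization, only the compared groups, a replicate block, edgeR, DESeq2, division by transcript length and leaving out each library. Sums without Tnnt3, sums as a share of all reads on genes and sums with a library left out were added after seeing the data. Counting intervals are exact binomial 95% intervals. The procedure was tested on simulated data. Tools were R 4.3.3, limma 3.58.1, edgeR 4.0.16, DESeq2 1.42.0, Python 3.11.15, pandas 2.3.3, numpy 2.4.6, scipy 1.17.1 and matplotlib 3.10.9.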

Additional observations from a re-analysis of the deposited data

Results flagged for a closer look

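The CD31+CD45+ library, which entered no comparison, held more fibre gene signal than any library of the NaCl groups. The summed value of the 10 fibre genes was 4187 in it, against 945 and 1106 in FAPs and 119 to 171 in ASCs after NaCl injection, and 265 to 342 in injured FAPs. It is a single library with no replicate, from 13091077 reads on genes, and the difference was not tested.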

How the results depend on the processing

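Of 459 alternative results for single fibre genes, 416 kept their direction and side of the threshold, 25 lost a call, 18 gained one and 0 reversed. With a mean of at least 50 only 2 fibre genes, Acta1 and Tnnt3, were tested. Of these 2 genes, 2 were called lower for ASCs and 2 for injured FAPs, each set beside FAPs, and 1 was called higher in injured FAPs against ASCs, with medians of -3.10 for ASCs against FAPs and 1.23 for injured FAPs against ASCs.

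For ASCs against FAPs the median of -3.81 became -4.30 with a pseudocount of 0.5, -2.18 with 8, -3.63 with no filter, -3.28 after quantile normalization, -3.95 with a common upper quartile, -4.14 with edgeR and -4.20 with DESeq2. For injured FAPs against FAPs the median of -1.88 became -1.52 with a pseudocount of 8, and quantile normalization gave -1.50 with 3 genes called lower instead of 6. With the replicate block this median was -1.54 and 4 genes were called lower. The number called lower there was also 4 with a pseudocount of 0.5, 7 with a common upper quartile, 8 with a pseudocount of 8, edgeR or DESeq2, and 9 of 9 with only the compared groups. For injured FAPs against ASCs the median of 2.38 became 2.60 with a pseudocount of 0.5 and 1.19 with 8, and 1 gene was called lower instead of 0 after quantile normalization. In these changes the cause was not tested.

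Leaving out 1 library at a time gave medians of -4.06 to -3.56, -1.88 to -1.66 and 2.09 to 2.52 in the 3 comparisons. The number called lower was 8 to 9 for ASCs beside FAPs, 3 to 8 for injured FAPs beside FAPs and 0 to 1 in injured FAPs against ASCs, where 6 to 7 were called higher. Where 1 FAP library remained it was assumed to vary like the other groups.

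The summed level in injured FAPs, 30.5% of FAPs, was 35.2% without Tnnt3, 29.8% per transcript length and 33.4% as a share of all reads on genes, and 28.3% to 33.1% with a library left out. In ASCs, at 14.8%, it was 5.08%, 17.0% and 9.89%, and 13.7% to 16.4% with a library left out. Correlations of residuals between libraries with the same number ran from -0.0545 to 0.0446, and between libraries of different numbers from -0.123 to 0.123. The residuals of the 2 FAP libraries mirror each other, so their correlations cannot show whether libraries were paired.

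Few reads limit the fibre genes in ASCs, and 2 FAP libraries limit every comparison with FAPs. Variation between animals was not measured where libraries came from 1 pool.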
